A study of Mus musculus with 6 samples.

Results

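The 51 genes described here encode the Wnt ligands, their Frizzled receptors, co-receptors, the R-spondins and their Lgr receptors, together with genes that the pathway switches on and that feed back on it. They were chosen by gene symbol, and all 51 were found among the 24346 symbols of the files. They comprise 18 ligands, 10 Frizzled receptors, 6 co-receptors, 4 R-spondins, 3 Lgr receptors and 10 feedback and target genes. Messenger RNA was sequenced from E17.5 mouse embryos, in which the nasomaxillary complex, that is the nose and upper jaw with their skeleton, epithelium and soft tissue, was sampled. The 3 control libraries came from Pth1r f/f embryos and the 3 mutant libraries from Wnt1-Cre:Pth1r f/f embryos. Pth1r, the receptor that parathyroid hormone and its related peptide share, is thus floxed in both groups, and the Cre transgene is in the mutants alone, so the transgene and the loss of Pth1r cannot be told apart. None of the embryos was treated. The Wnt1 sequences in the transgene drive Cre in the neural crest, whose descendants include most of the facial skeleton, while epithelium, muscle fibres, endothelium and blood keep the floxed gene. The labels do not say which Wnt1-Cre line was used, whether each library is 1 embryo or a pool, or which litters the embryos came from, and the spread that p-values rest on may be technical.

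Wnt proteins are secreted signals that bind a Frizzled receptor. With the co-receptors Lrp5 or Lrp6 this spares beta-catenin from destruction, and beta-catenin then joins the DNA-binding proteins Tcf7 and Lef1 to switch on targets such as Axin2. Ror1, Ror2 and Ryk carry signals that do not depend on beta-catenin. Znrf3 and Rnf43 remove Frizzled proteins from the cell surface, and R-spondins, through Lgr4, Lgr5 or Lgr6, hold them back. In the developing face the pathway acts in outgrowth, tooth and hair follicle formation, bone formation and cartilage maturation.

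Each library gave 1 value per gene in FPKM, fragments scaled by transcript length and library size, so levels can be compared between genes. The spacing of low values put the depth between about 8700000 and 14300000 fragments, with mutant replicate 3 the shallowest. Pth1r lay between 55.2 and 75.2 FPKM in control and between 69.7 and 78.4 FPKM in mutant libraries, and since the labels do not name the floxed part, these levels check no label. Defining markers of cartilage, bone, skin and oral epithelium, muscle, endothelium, neurons, leukocytes and Schwann cells all averaged at least 1 FPKM except Myf5. Against the mean of the controls, the mean log2(FPKM + 1) of 12 cartilage markers stood at 0.019, -0.12 and 0.096 in control and at -1.48, -1.59 and -0.88 in mutant libraries. All 12 had negative changes, where 49.2% of all tested genes had positive ones. Of the 12, 6 were called lower at a limma adjusted p under 0.05 (0.203% of all tested genes). The 11 skin and oral epithelium markers stood at 0.33, 0.051 and -0.38 in control and 0.54, 0.50 and 0.52 in mutant libraries. The 15 skeletal muscle markers stood at 0.28, -0.25 and -0.035 in control and 0.59, 1.39 and 0.25 in mutant libraries. The 7 leukocyte markers stood at -0.067, 0.0039 and 0.063 in control and 0.12, 0.27 and 0.21 in mutant libraries. All 7 changes were positive (49.2% of all tested genes) and 0 were called (0.264% of all tested genes). In this tissue, fewer cells of a type and less RNA per cell cannot be told apart. Xist, the RNA of the inactive X chromosome, was between 74.1 and 77.1 FPKM in the controls and mutant replicate 1 and under 0.03 FPKM (0.0263 and 0.0295) in mutant replicates 2 and 3. The part of these differences in the results below was not tested beyond the alternatives named with them.

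No member passed the test between mutant and control. Of the 51 members 44 had a mean of at least 1 FPKM and were tested with limma on log2(FPKM + 1), and 0 of 44 had an adjusted p under 0.05, where 0.264% of all 14766 tested genes did. The smallest adjusted p of a member was 0.139, for Tcf7. At an unadjusted p under 0.05 there were 11 members (25%), against 11.3% of all tested genes, 5 of them higher and 6 lower in mutants where the background was 5.35% and 5.96%. Members were chosen with earlier results of these data known, so a share above the background is no test of the list. In the same 11 members the mutant values lay entirely on 1 side of the control values, which held for 17.0% of all tested genes. In 5 of them all mutant libraries were higher (7.85% of all tested genes), namely Wnt5b, Fzd6, Fzd10, Lgr4 and Apcdd1. In 6 all mutant libraries were lower (9.16% of all tested genes), namely Rspo4, Tcf7, Fzd9, Fzd1, Fzd2 and Rspo1. The count of separated members was 18 without control replicate 2 and 19 without mutant replicate 3, where 28.5% and 29.5% of all tested genes were separated.

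The median log2 change of the 44 tested members was 0.021, beside -0.0020 over all tested genes, and 23 of 44 were positive, where 49.2% of all tested genes were. The median size of the change regardless of sign was 0.11 for the members and 0.072 for all tested genes. In 36 of 44 members (81.8%) the 95% interval of the change, taken gene by gene, lay within a 1.5-fold change in either direction, as it did for 90.0% of all tested genes. The other 8 were Wnt5a, Wnt6, Wnt10a, Fzd9, Fzd10, Rspo2, Rspo4 and Tcf7. On the log2(FPKM + 1) scale changes of genes at low FPKM are understated.

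**Figure D1:**
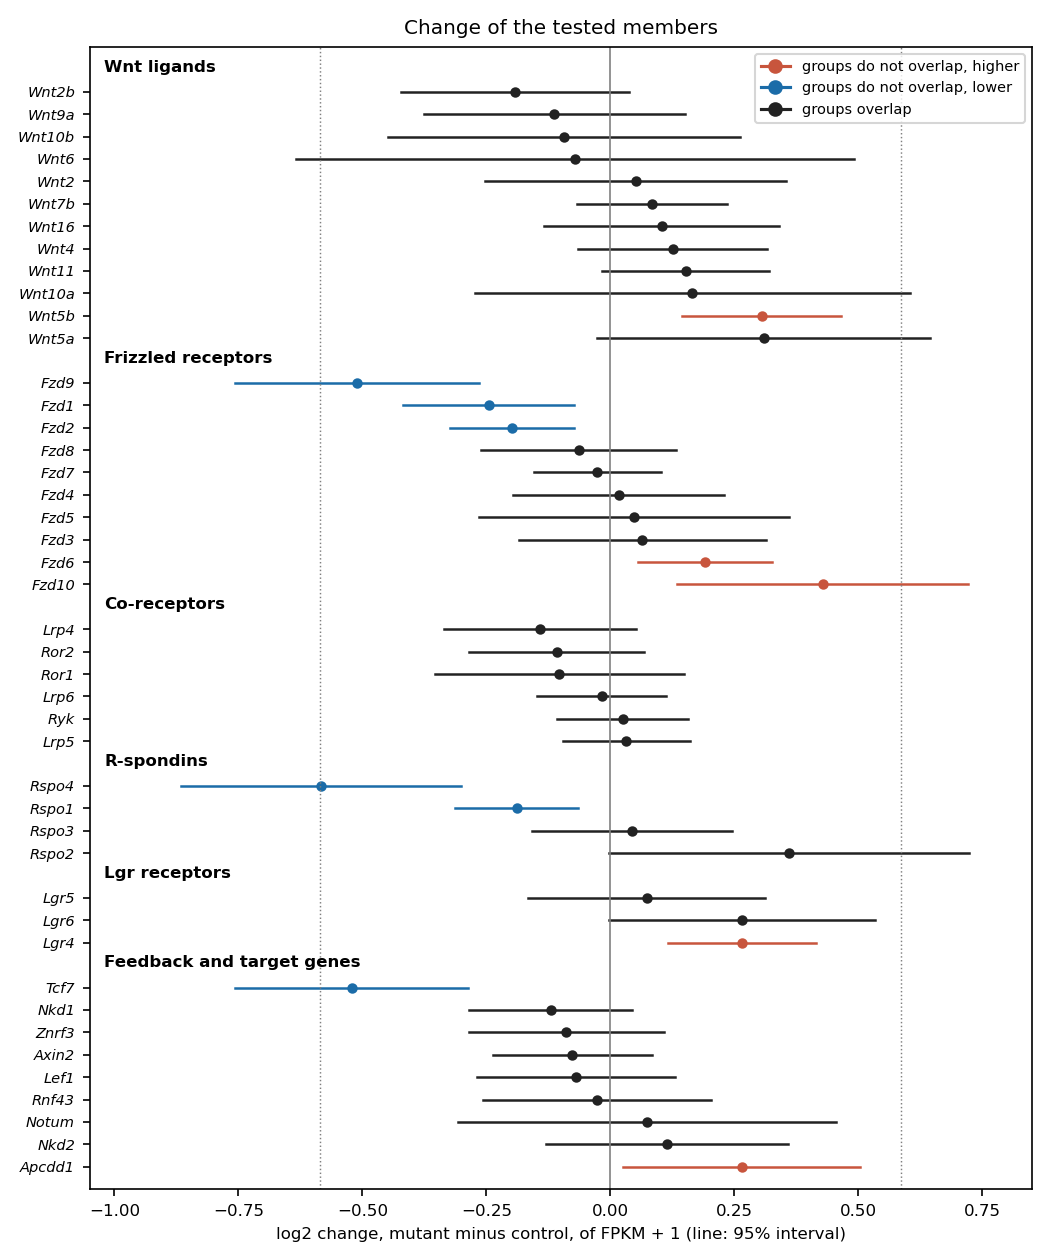
Log2 change of FPKM + 1, mutant minus control, of the 44 tested members in their classes; points are estimates, lines 95% intervals, dotted lines a 1.5-fold change. The 5 members in red and 6 in blue are those whose groups do not overlap; the largest estimates are -0.58 for Rspo4 and 0.43 for Fzd10.

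The ligands were led by Wnt5a, a ligand known mainly for signalling without beta-catenin and for outgrowth of limbs and face. Its level averaged 41.4 FPKM over the 6 libraries, 33.0% of the summed FPKM of all 18 ligands. Wnt4 followed at 20.01 FPKM, then Wnt7b at 11.8, Wnt11 at 9.79, Wnt10b at 8.96 and Wnt9a at 6.40 FPKM. Another 6 tested ligands, Wnt6, Wnt5b, Wnt2b, Wnt16, Wnt10a and Wnt2, averaged between 2.503 and 5.63 FPKM. The remaining 6, Wnt3a, Wnt3, Wnt7a, Wnt8b, Wnt1 and Wnt9b, averaged under 1 FPKM and were not tested.

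**Figure D2:**
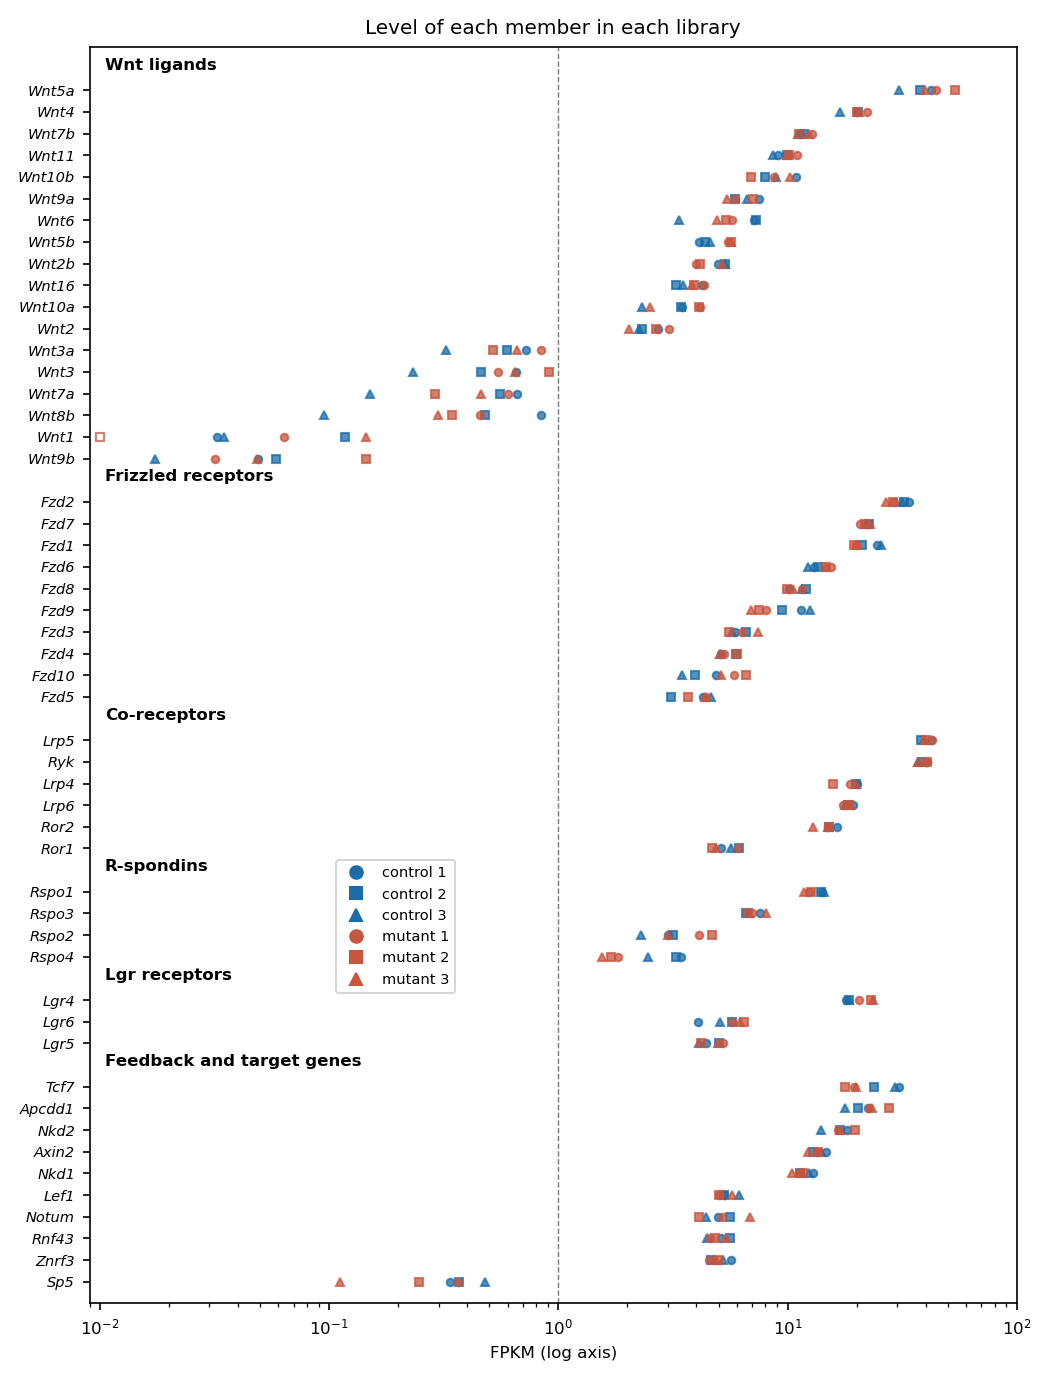
FPKM (log axis) of all 51 members in each of the 6 libraries, by class and ordered by mean level; the dashed line marks 1 FPKM. Wnt1 is listed at 0 in mutant replicate 2, drawn as an open square at 0.01. The ligands span Wnt5a at a mean of 41.4 FPKM to Wnt9b at 0.0583 FPKM.

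In the order of the replicates, Wnt5a stood at 42.5, 37.8 and 30.5 FPKM in control libraries and at 44.4, 53.7 and 39.7 FPKM in mutant libraries, an order kept below. The groups overlapped, with control replicate 3 lowest and mutant replicate 2 highest. The estimated log2 change of 0.31 ± 0.14 (SE, as for all changes below) had a limma adjusted p of 0.476. Leaving out control replicate 3 gave 0.18, leaving out mutant replicate 2 gave 0.19, and the muscle markers as a covariate gave 0.029. Wnt4, a ligand of joints and of many epithelia, measured 20.2, 20.3 and 16.9 FPKM in control and 22.2, 20.1 and 20.5 FPKM in mutant libraries, and these groups overlapped too (0.13 ± 0.081, limma adjusted p = 0.616, and 0.044 without control replicate 3).

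Wnt5b is a close relative of Wnt5a that chondrocytes make before they enlarge. It was the only 1 of 12 tested ligands whose groups did not overlap (8.33%, beside 17.0% of all tested genes). It measured 4.13, 4.35 and 4.59 FPKM in control and 5.52, 5.67 and 5.65 FPKM in mutant libraries, from 112, 131 and 117 and from 153, 139 and 103 fragments. The mutant mean of 5.61 ± 0.0853 FPKM (SD, n = 3) was 1.29 times the control mean of 4.36 ± 0.233 FPKM (SD, n = 3). The log2 change was 0.30 ± 0.068 (95% interval 0.14 to 0.47), with a limma adjusted p of 0.194, and lay between 0.27 and 0.40 over 18 alternatives, none of which called it. In 1 of the alternatives, here and below, Xist as a covariate leaves mutant replicate 1 alone against the controls, which is no test of the groups. The cartilage markers were lower in the same libraries, at the values given above. Wnt5b lies on chromosome 6 from 119432531 to 119544347, minus strand (GRCm38, GENCODE).

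The transgene carries regulatory sequence of Wnt1, the ligand of the midbrain and dorsal neural tube, so its own transcript was read in every library. Wnt1 (chromosome 15, 98789857 to 98793837, plus strand) measured 0.0325, 0.117 and 0.0346 FPKM in control and 0.0636, 0 and 0.145 FPKM in mutant libraries. These are 1, 4 and 1 fragments in control and 2, 0 and 3 fragments in mutant libraries, 6 and 5 in all. The 0 of mutant replicate 2 allows up to 3 fragments, or 0.108 FPKM, from counting error alone. The groups overlapped, and a difference was not detectable at this depth. Wnt9b, a ligand of the early facial ectoderm, was as scarce, with 3, 4 and 1 fragments in control and 2, 8 and 2 in mutant libraries.

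**Figure D3:**
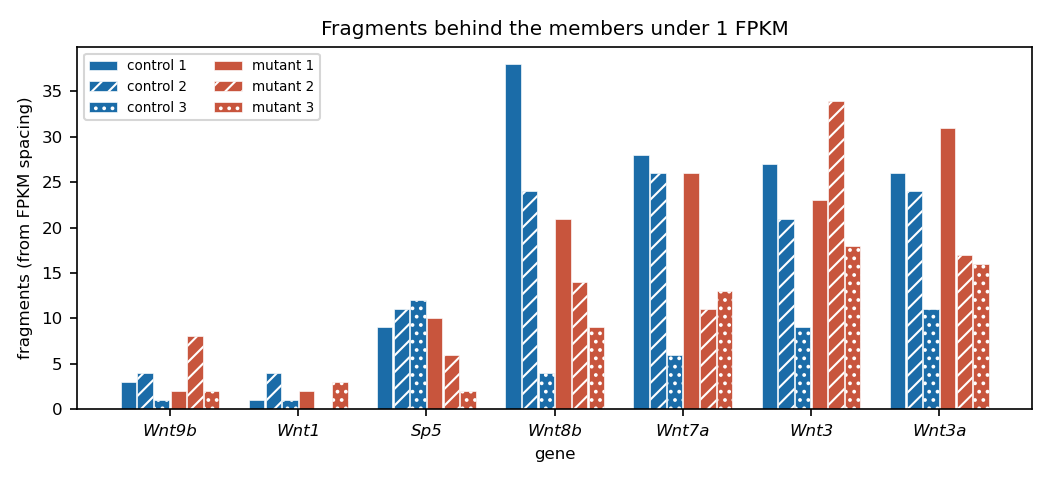
Fragments behind each of the 7 members under 1 FPKM in every library, from the spacing of FPKM values and not scaled for depth. Wnt1 rests on 0 to 4 fragments per library, and control replicate 3 holds the fewest fragments of Wnt8b, Wnt7a, Wnt3 and Wnt3a.

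The 250 bases of reference sequence before the Wnt1 start are shown because Wnt1 names the transgene. Those before the starts of Axin2 and Sp5 are shown because both genes are widely used as direct targets of beta-catenin. The sequences are from RefSeq (GRCm38.p6) on the strand of the gene, which is plus for all 3. Capitals mark matches on either strand to the motif CTTTGAA, the motif CTTTGAT, the motif CTTTGTA or the motif CTTTGTT, which share their first 5 letters and are sequences that Tcf7 and Lef1 proteins are known to bind. Whether the transgene holds these bases is not given in the labels.
Wnt1 (chr15:98789607-98789856): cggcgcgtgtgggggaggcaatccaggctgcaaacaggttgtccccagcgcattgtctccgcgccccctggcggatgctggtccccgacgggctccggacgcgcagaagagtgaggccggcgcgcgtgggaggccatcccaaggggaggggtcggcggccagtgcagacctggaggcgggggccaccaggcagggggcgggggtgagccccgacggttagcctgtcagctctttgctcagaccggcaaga
Axin2 (chr11:108920099-108920348): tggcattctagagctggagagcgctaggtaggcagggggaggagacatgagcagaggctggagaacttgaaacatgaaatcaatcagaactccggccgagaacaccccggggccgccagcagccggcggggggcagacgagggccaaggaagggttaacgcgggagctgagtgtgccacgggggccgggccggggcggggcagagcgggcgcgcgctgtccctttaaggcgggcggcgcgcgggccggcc
Sp5 (chr2:70474673-70474922): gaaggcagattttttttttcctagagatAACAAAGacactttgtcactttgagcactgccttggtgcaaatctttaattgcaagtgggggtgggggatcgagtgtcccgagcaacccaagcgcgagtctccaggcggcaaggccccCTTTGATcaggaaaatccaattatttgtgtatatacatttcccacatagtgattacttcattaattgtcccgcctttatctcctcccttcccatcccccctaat

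Sp5 had 2 matches in this window, and Wnt1 and Axin2 had 0. Of 35 members with a RefSeq start, 5 genes had a match at 1 of their starts, namely Sp5, Lef1, Fzd7, Wnt11 and Wnt5b, which is 11.6% of 43 starts, beside 14.8% of all 32851 starts in the table. The windows of the members were rich in G and C, with a median of 66.4% and 20 CpG pairs, against 52.4% and 6 over all starts. A match is a run of letters and not a measured site.

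Among the ligand genes 8 lie in 4 pairs of neighbours on the chromosomes. Wnt10b, a ligand of hair follicle and bone, lies 11.7 kb from Wnt1 on the opposite strand, and averaged 9.26 ± 1.53 FPKM in control and 8.65 ± 1.67 FPKM in mutant (SD, n = 3 each) where Wnt1 was near 0. Wnt9a averaged 6.40 FPKM and its neighbour Wnt3a, 16.2 kb away, 0.610 FPKM. Wnt3 and Wnt9b, 24.3 kb apart on chromosome 11, were both under 1 FPKM. Wnt6 and Wnt10a, 6.2 kb apart on chromosome 1, averaged 5.63 and 3.33 FPKM.

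Control replicate 3 was often the lowest library in the ligands. It held the lowest of the 6 values for 11 of 18 ligands and for 19 of all 51 members. How often it was lowest over all genes was not counted. The 11 were Wnt4, Wnt5a, Wnt6, Wnt7b, Wnt10a and Wnt11, and also Wnt3, Wnt3a, Wnt7a, Wnt8b and Wnt9b, which averaged under 1 FPKM. Wnt9b rested on 1 fragment in this library. Wnt6, a ligand of surface epithelium, measured 7.15, 7.30 and 3.35 FPKM in control and 5.70, 5.40 and 4.90 FPKM in mutant libraries. Wnt8b measured 0.843, 0.480 and 0.0945 FPKM in control libraries, or 38, 24 and 4 fragments, and between 0.297 and 0.456 FPKM in mutant libraries. Control replicate 3 also held the lowest level of the skin and oral epithelium markers, whose summed FPKM ran from 881 to 1804 in control and from 2044 to 2149 in mutant libraries. With that marker level as a covariate, an alternative chosen after seeing the data, Wnt4 and Wnt5a changed sign to -0.066 and -0.023. The median log2 change of the 12 tested ligands was -0.080 there, in place of 0.094. This marker level nearly follows genotype, at 0.50 to 0.54 in mutant and at most 0.33 in control libraries. Values with this covariate, here and below, therefore cannot tell epithelium and genotype apart.

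**Figure D4:**
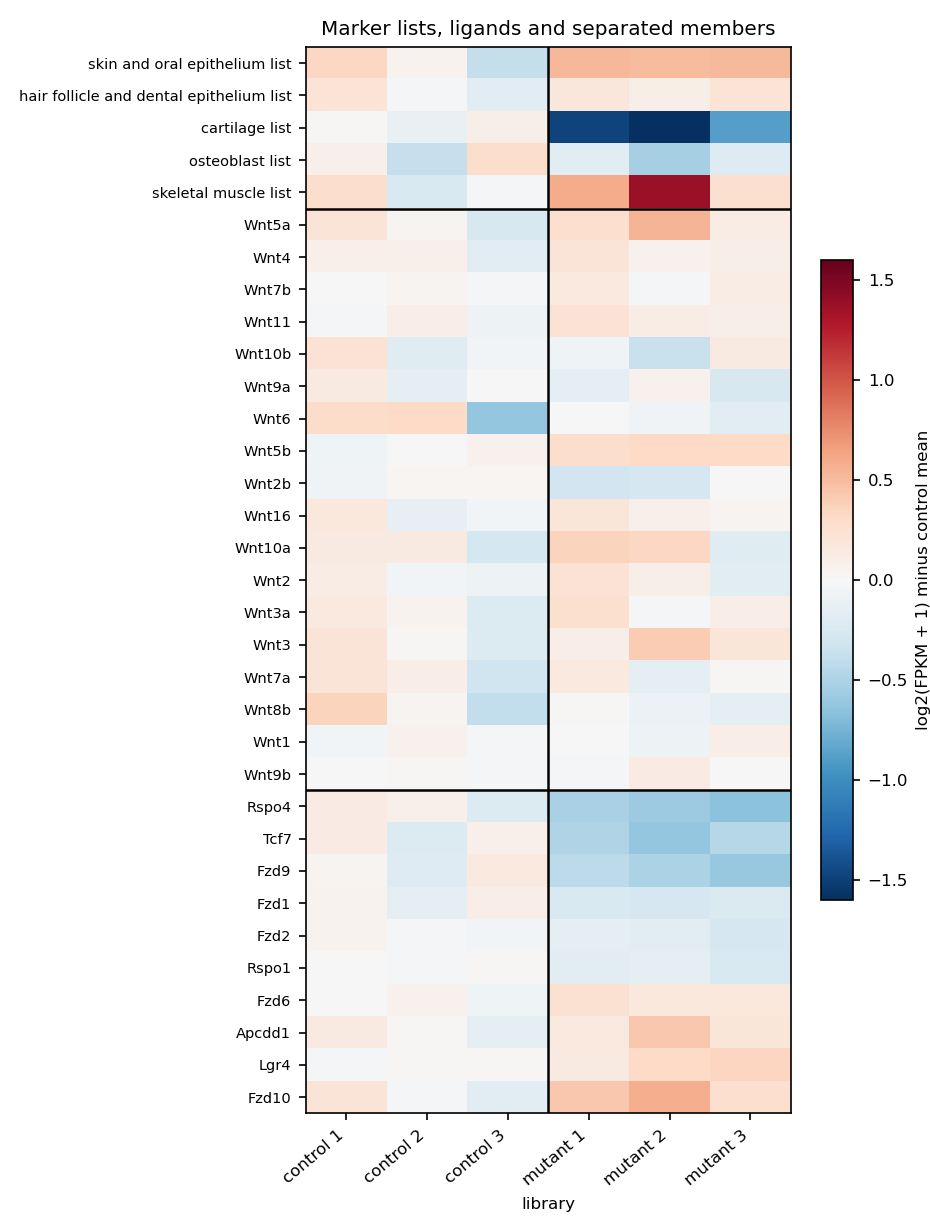
Difference of log2(FPKM + 1) from the mean of the controls in each library, for 5 marker lists, the 18 ligands and the other 10 members whose groups do not overlap. Control replicate 3 is low in the skin and oral epithelium list (-0.38) and in Wnt6 (-0.61), and the cartilage list is at -0.88 or lower in every mutant library.

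All 10 Frizzled receptors averaged between 4.08 and 30.5 FPKM, with Fzd2 and Fzd7 highest. Fzd7 was nearly level, with 22.1, 22.6 and 21.9 FPKM in control and 20.6, 21.8 and 23.0 FPKM in mutant libraries (log2 change -0.027, 95% interval -0.15 to 0.10, limma adjusted p = 0.899). In 5 of the 10 the groups did not overlap (17.0% of all tested genes), 3 of them lower (9.16%) and 2 higher (7.85%) in mutant libraries. The summed FPKM of the class was 130.7 to 135.6 in control and 124.1 to 126.6 in mutant libraries.

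Fzd9, a receptor whose loss in mice lowers bone formation, had the smallest p of the class. It measured 11.5, 9.47 and 12.5 FPKM in control and 8.03, 7.54 and 6.94 FPKM in mutant libraries, from 311, 284 and 318 and from 222, 184 and 126 fragments. Every mutant library lay below every control, and the control mean of 11.2 ± 1.56 FPKM (SD, n = 3) was 1.49 times the mutant mean of 7.50 ± 0.548 FPKM (SD, n = 3). The log2 change was -0.51 ± 0.10 (95% interval -0.76 to -0.27), with a limma adjusted p of 0.163. The adjusted p ran from 0.0937 to 0.999 over 19 alternatives, and the change from -0.62 to -0.40. Fzd9 lies on chromosome 5 from 135248938 to 135251230, minus strand.

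Fzd1 and Fzd2 differed by less. Fzd1 measured 24.6, 21.1 and 25.5 FPKM in control and 19.8, 19.5 and 20.1 FPKM in mutant libraries, with a log2 change of -0.25 ± 0.073 (limma adjusted p = 0.299). Fzd2 measured 34.1, 32.2 and 31.7 FPKM in control and 29.2, 28.8 and 27.0 FPKM in mutant libraries, with a log2 change of -0.20 ± 0.053 (limma adjusted p = 0.266). In both the groups did not overlap. Fzd10 (chromosome 5, 128600844 to 128604093, plus strand) stood the other way, at 4.88, 3.96 and 3.47 FPKM in control and 5.86, 6.58 and 5.12 FPKM in mutant libraries. Its mutant mean was 1.43 times the control mean, with a log2 change of 0.43 ± 0.12 (95% interval 0.13 to 0.72, limma adjusted p = 0.297), which was 0.16 with the skin and oral epithelium markers and 0.20 with the muscle markers as a covariate. Fzd6, the receptor that orients hairs on the skin, measured 13.01, 13.6 and 12.3 FPKM in control and 15.5, 14.7 and 14.7 FPKM in mutant libraries (0.19 ± 0.058, limma adjusted p = 0.304). Exons of Fzd6, as of Axin2, Fzd5, Lef1, Notum, Rspo3, Wnt5a, Wnt7b and Wnt11, overlap a gene on the opposite strand (9 of 51 members), and whether the counting used strand is not given in the sources used here.

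**Figure D5:**
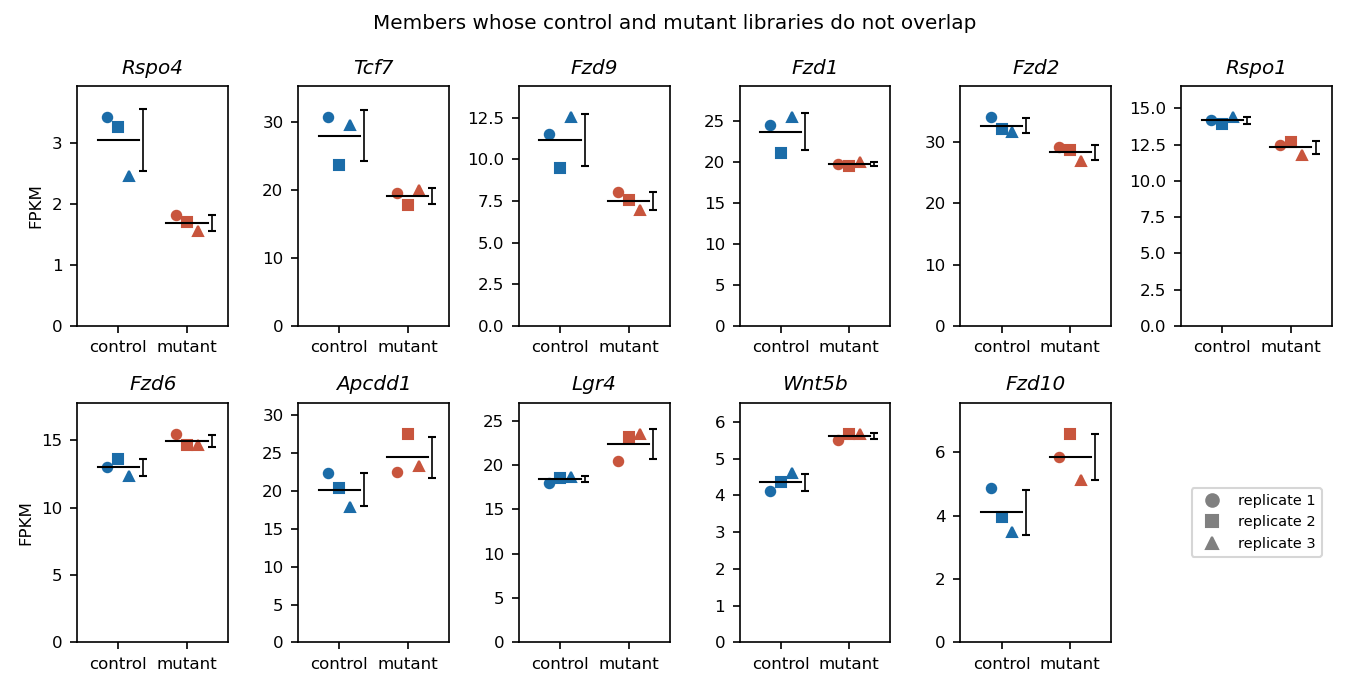
FPKM of the 11 members whose control and mutant libraries do not overlap, ordered by log2 change; points are libraries, horizontal lines means and bars SD over 3 libraries, with every axis starting at 0. Rspo4, Tcf7, Fzd9, Fzd1, Fzd2 and Rspo1 are lower in all mutant libraries, and Fzd6, Apcdd1, Lgr4, Wnt5b and Fzd10 higher.

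Of the 6 co-receptors all 6 had intervals within a 1.5-fold change (90.0% of all tested genes), and in 0 of 6 were the groups separated (17.0% of all tested genes). Lrp5 measured 42.1, 38.2 and 39.2 FPKM in control and 42.5, 40.1 and 39.7 FPKM in mutant libraries, a log2 change of 0.032 (95% interval -0.096 to 0.16, limma adjusted p = 0.875). Ryk was at 40.4, 38.4 and 37.0 FPKM in control and 40.2, 40.5 and 37.2 FPKM in mutant libraries (0.025, interval -0.11 to 0.16, limma adjusted p = 0.912). These are the highest levels of the class, and they overlapped throughout. Lrp4, which also binds the Wnt inhibitor sclerostin, measured 20.2, 19.9 and 19.95 FPKM in control and 18.7, 15.8 and 19.9 FPKM in mutant libraries, where mutant replicate 2 alone was more than 2 FPKM below the others (-0.14 ± 0.083, limma adjusted p = 0.569, and -0.051 without that library). Ror2, a Wnt5a receptor of cartilage and bone, measured 16.4, 15.2 and 15.0 FPKM in control and 15.0, 15.2 and 12.9 FPKM in mutant libraries (-0.11 ± 0.075, limma adjusted p = 0.649, and -0.038 without mutant replicate 3). Lrp6 and Ror1 averaged 18.3 and 5.42 FPKM.

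The R-spondins included the member with the largest estimate. Rspo4, known for its need in nail formation, measured 3.41, 3.25 and 2.46 FPKM in control and 1.81, 1.69 and 1.55 FPKM in mutant libraries, from 105, 111 and 71 and from 57, 47 and 32 fragments. All mutant libraries lay below the lowest control, and the control mean of 3.04 ± 0.511 FPKM (SD, n = 3) was 1.81 times the mutant mean of 1.68 ± 0.132 FPKM (SD, n = 3). The log2 change was -0.58 ± 0.12 (95% interval -0.87 to -0.30), with a limma adjusted p of 0.163. Over 18 alternatives it ran from -0.85, with the skin and oral epithelium markers as a covariate, to -0.51, with Xist as a covariate. None of them called it, and the smallest limma adjusted p was 0.121, with quantile scaling. Rspo4 lies on chromosome 2 from 151842927 to 151874668, plus strand.

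Rspo1 was the most abundant R-spondin, at 14.2, 13.9 and 14.4 FPKM in control and 12.5, 12.7 and 11.8 FPKM in mutant libraries. The groups were separated, with a log2 change of -0.19 ± 0.053 (95% interval -0.31 to -0.065, limma adjusted p = 0.276). Rspo3 measured 7.58, 6.58 and 6.82 FPKM in control and 7.01, 6.69 and 8.04 FPKM in mutant libraries, which overlapped (0.044 ± 0.086, limma adjusted p = 0.896). Rspo2, needed for limb and facial outgrowth, averaged 2.82 ± 0.467 FPKM in control and 3.93 ± 0.857 FPKM in mutant (SD, n = 3 each), with overlapping groups and a limma adjusted p of 0.443.

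All 3 Lgr receptors had positive estimates (49.2% of all tested genes), and in 1 of the 3 the groups did not overlap (17.0% of all tested genes). Lgr4, the most widely expressed of them, measured 18.01, 18.6 and 18.6 FPKM in control and 20.5, 23.2 and 23.5 FPKM in mutant libraries. Its mutant mean of 22.4 ± 1.67 FPKM was 1.22 times the control mean of 18.4 ± 0.346 FPKM (SD, n = 3 each), with no overlap. The log2 change was 0.27 ± 0.063 (95% interval 0.12 to 0.42), the limma adjusted p was 0.221, and 0 of 19 alternatives called it (adjusted p from 0.179 to 0.999). Lgr4 lies on chromosome 2 from 109917647 to 110014257, plus strand. Lgr6, a marker of epithelial progenitors, measured 4.05, 5.75 and 5.06 FPKM in control and 5.70, 6.47 and 6.19 FPKM in mutant libraries, where mutant replicate 1 lay just inside the control range (0.27 ± 0.11, limma adjusted p = 0.444, and 0.15 without control replicate 1). Lgr5, a stem cell marker, averaged 4.52 ± 0.467 FPKM in control and 4.81 ± 0.543 FPKM in mutant (SD, n = 3 each). Its groups overlapped, with a log2 change of 0.073 ± 0.10 (limma adjusted p = 0.841).

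In 7 of the 9 tested feedback and target genes the groups overlapped. Tcf7 and Apcdd1 were the others, a share of 22.2% beside 17.0% of all tested genes. Axin2, a scaffold of the complex that destroys beta-catenin, measured 14.7, 12.9 and 14.0 FPKM in control and 13.5, 13.6 and 12.3 FPKM in mutant libraries. The groups overlapped, and the log2 change of -0.077 had a 95% interval of -0.24 to 0.084 (limma adjusted p = 0.734). Nkd1, an inhibitor that binds the transducer Dishevelled, averaged 12.2 ± 0.839 FPKM in control and 11.2 ± 0.611 FPKM in mutant, Lef1 5.57 ± 0.476 and 5.26 ± 0.421 FPKM, and Znrf3 5.17 ± 0.506 and 4.79 ± 0.200 FPKM (SD, n = 3 each), all with overlapping groups and 95% intervals within a 1.5-fold change. Rnf43 averaged 5.05 and 4.94 FPKM, Nkd2 16.4 and 17.8 FPKM, and Notum, an enzyme that strips Wnt proteins of their lipid, 4.99 and 5.38 FPKM in control and mutant. Sp5, a transcription factor target, was too low to test, with 9, 11 and 12 fragments in control and 10, 6 and 2 in mutant libraries, the 2 coming from the shallowest library. In FPKM, which is scaled for depth, it stood at 0.335, 0.369 and 0.476 in control and 0.364, 0.247 and 0.111 in mutant libraries. These groups overlapped, with mutant replicate 3 lowest on this scale as well.

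Tcf7, one of the DNA-binding partners of beta-catenin, had the largest log2 change of the tested genes of the class. It measured 30.7, 23.7 and 29.6 FPKM in control and 19.6, 17.8 and 19.97 FPKM in mutant libraries, from 886, 760 and 801 and from 578, 463 and 387 fragments. Every mutant library lay below control replicate 2, the lowest control, and the control mean of 28.0 ± 3.74 FPKM was 1.47 times the mutant mean of 19.1 ± 1.18 FPKM (SD, n = 3 each). The log2 change was -0.52 ± 0.10 (95% interval -0.76 to -0.29), with a limma adjusted p of 0.139. Over 19 alternatives the change ran from -0.63 to -0.45 and the adjusted p from 0.0544, without control replicate 2, to 0.999, and none called it. Control replicate 2 was the lowest control for Fzd9 and Fzd1 as well, where the limma adjusted p without it was 0.0937 and 0.137. It also had the lowest cartilage and osteoblast marker levels of the controls (-0.12 and -0.37). Osteoblast markers stood at -0.17, -0.54 and -0.21 in mutant replicates 1 to 3, and the part of either list in the values of Tcf7 was not tested. Tcf7 lies on chromosome 11 from 52252371 to 52283014, minus strand. Its transcripts differ in whether they encode the part that binds beta-catenin, which a single value per gene cannot show.

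Apcdd1, a membrane protein that blocks Wnt signals at the receptor and is needed for hair growth, stood higher. It measured 22.4, 20.4 and 17.9 FPKM in control and 22.6, 27.6 and 23.3 FPKM in mutant libraries, where control replicate 1 and mutant replicate 1 nearly touched. The log2 change was 0.26 ± 0.10 (95% interval 0.026 to 0.50, limma adjusted p = 0.397), and its lowest value over 19 alternatives was 0.052, with the skin and oral epithelium list as a covariate. It was 0.084 with the muscle markers as a covariate.

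The rest of the pathway was read from lists apart from the 51 members. Calls were found in the secreted antagonists alone among the 6 lists: of 14 tested antagonists, 2 were called higher (0.0610% of all tested genes), namely Sostdc1 and Sost, and 1, Sfrp4, lower (0.203%). Over these 14 genes 7 changes were positive, and the median log2 change was -0.0040. The median size of the change regardless of sign was 0.30, beside 0.072 over all tested genes. In 8 of the 14 the groups did not overlap (17.0% of all tested genes), 6 of them higher (7.85%) and 2 lower (9.16%) in mutants. At an unadjusted limma p under 0.05 there were 8 (11.3% of all tested genes). This list too was chosen with earlier results known, so these shares are no test of it. Sfrp4 measured 21.3, 18.8 and 27.0 FPKM in control and 7.42, 8.05 and 10.1 FPKM in mutant libraries (limma adjusted p = 0.0267). Sost, the gene of the osteocyte inhibitor sclerostin that binds Lrp5 and Lrp6, measured 2.73, 2.29 and 2.26 FPKM in control and 9.08, 6.08 and 9.42 FPKM in mutant libraries (limma adjusted p = 0.0228). Dkk1 and Dkk2, ligands of Lrp5 and Lrp6 that block or modulate Wnt signals, were named after their values were seen. Dkk1 measured 9.81, 7.53 and 10.9 FPKM in control and 21.0, 15.8 and 19.7 FPKM in mutant libraries, a log2 change of 0.94 ± 0.14 with a limma adjusted p of 0.0778. Dkk2 measured 15.2, 14.9 and 13.9 FPKM in control and 20.9, 24.7 and 19.6 FPKM in mutant libraries (limma adjusted p = 0.0918). Neither passed the threshold, and in both the groups did not overlap.

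In the other lists 0 genes were called. They held 8 tested genes of ligand secretion, 18 of cytoplasmic transduction, 13 nuclear factors, 17 of planar cell polarity and 12 further Wnt-responsive genes. At an unadjusted limma p under 0.05 there were 0 in the first 4 of these and 2, Tnfrsf19 and Ccnd1, in the last, beside 11.3% of all tested genes. In that last list 2 of 12 changes were positive (49.2% of all tested genes), the median log2 change was -0.14, and in 3 of 12 the groups did not overlap, all 3 lower in mutants (9.16% of all tested genes). Tnfrsf19, a receptor induced by beta-catenin, measured 31.8, 29.2 and 32.4 FPKM in control and 23.0, 24.2 and 23.7 FPKM in mutant libraries, a log2 change of -0.38 ± 0.056 (limma adjusted p = 0.0614). Ccnd1, the cell cycle gene of cyclin D1, averaged 80.4 ± 4.29 FPKM in control and 73.1 ± 0.977 FPKM in mutant (SD, n = 3 each, limma adjusted p = 0.397). The smallest p of the other lists belonged to Tmed2 and Snx3 in secretion (limma adjusted p of 0.479 and 0.508), to Tnks2 and Amer1 in transduction (0.517 and 0.715), to Tle4 and Tle1 among nuclear factors (0.455 and 0.466) and to Celsr2 and Dact1 in polarity (0.508 and 0.527). Ctnnb1, the gene of beta-catenin, averaged 391 ± 15.0 FPKM in control and 392 ± 6.37 FPKM in mutant (SD, n = 3 each), with a 95% interval of the log2 change from -0.11 to 0.12, and was named after its values were seen.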

How the data were processed

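The authors deposited FPKM values, 1 file per library, per the file headers. Cuffdiff 2.2.1, TopHat2 2.1.1, SAMtools 0.1.18 and Bowtie2 2.2.8 are named, with the mouse build mm10, per the submitters' processing notes. Annotation, strand setting and scaling between libraries: not given in the sources used here. Total RNA came from TRIzol extraction, and the mRNA kit was a stranded one, per the labels' protocols.

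Libraries were grouped by the genotype label. Values were tested as log2(FPKM + 1) with limma 3.58.1 in R 4.3.3 (lmFit, eBayes with trend, two-sided, no covariate), for the 14766 genes averaging 1 FPKM or more. P-values were adjusted by Benjamini-Hochberg over all of them, with a threshold of 0.05. The fit has 4 residual degrees of freedom, to which eBayes adds those of its prior for p-values and intervals. It was tested on simulated data with larger changes than those estimated for the members, so that test does not cover changes of their size. Members, lists and alternatives were chosen with earlier results of these data known. The genes named with all their values are Wnt1, the members with an unadjusted p under 0.05 whose groups do not overlap, and the 2 highest and the 2 of smallest p in each class. Axin2 and Wnt6 were added after their values were seen and are not among the 20 named members whose alternatives are counted. Elsewhere called genes, or the 2 of smallest p, are named. In the lists, Ccn4 and Ccn5 were read as Wisp1 and Wisp2.

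FPKM of low genes are whole multiples of the value of 1 fragment. Relative library sizes were taken from ratios of values under 0.15 FPKM, and fragments from the smallest whole numbers that fit all 6 libraries within 0.03, which were found for 41 of 51 members. Depth in control replicate 1, about 12900000 fragments, is an estimate from 367 genes of 1 annotated transcript. Gene positions are from GENCODE M21 (GRCm38, the coordinates of mm10). Plots were drawn with matplotlib 3.10.9.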

Additional observations from a re-analysis of the deposited data

How the results depend on the processing

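None of the 19 alternatives called a member: the count stayed at 0 without a filter or with one at 5 FPKM, pseudocounts of 0.1 and 0.5, median ratio, upper quartile or quantile scaling, eBayes without trend or robust, library weights, the muscle markers, Xist or the skin and oral epithelium markers as a covariate (the last chosen after seeing the data), and leaving out each library. The smallest adjusted p of a named member in any of them was 0.0544. The count of members whose groups do not overlap ran from 12 to 19 of 44 when 1 library was left out. Smaller groups separate more often, and 24.3% to 29.5% of all tested genes did so there. Otherwise the count ran from 8 to 12, beside 14.8% to 17.1% of all tested genes. The 8 came with the filter at 5 FPKM, which left 32 members to test. The median log2 change ran from -0.028 to 0.052 when 1 library was left out and was -0.064 with the skin and oral epithelium covariate. Of 20 tested named members 13 kept their sign throughout. The other 7 changed sign: with the skin and oral epithelium covariate Wnt4 (-0.066), Wnt5a (-0.023), Lrp5 (-0.034), Ryk (-0.064) and Rspo3 (-0.043), with the muscle covariate Fzd7 (0.0017), Lrp4 (0.024) and Ryk (-0.051), and among the libraries left out Ryk (-0.0052 to 0.064), Fzd7 (-0.064 to 0.011) and Rspo3 (-0.024 to 0.097). The cause was not tested. Since Xist separates mutant replicates 2 and 3 from the other libraries, its covariate leaves mutant replicate 1 alone against the controls and gives no test of the groups. With a covariate 1 residual degree of freedom fewer is left. Over all tested genes 39 were called without a covariate, 4 with the muscle covariate and 3 with the skin and oral epithelium covariate. The skin and oral epithelium markers stood at 0.50 to 0.54 in mutant and at most at 0.33 in control libraries, so this covariate nearly follows genotype. With these covariates hardly any gene could be called, so a count of 0 members there says little. No paired analysis was possible because the labels link no control library to a mutant library by litter or batch. They give no replicate numbers either, and those used here only name libraries in the order in which they are listed. Depth limits the 7 members under 1 FPKM, of which Wnt1 and Wnt9b rest on at most 4 and 8 fragments per library.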
